A study of Homo sapiens with 20 samples.

Results

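The RNA of cytoplasmic granules was compared between 5 libraries titled HD_SG and 5 libraries titled control_SG, 10 of the 20 libraries of the series. All came from HEK293, an established human embryonic kidney cell line, and both groups were total RNA of RNA granule cores. The HD granules came from HD-induced cells, where HD stands for Huntington's disease, and the control granules from cells labelled control. The labels give no allele, vector or time for the induction, and the sources used here do not say what was introduced into the cells. The 10 libraries were chosen by title alone, and each is labelled as a biological replicate of its group. Exosome libraries of the same cells, 5 per condition, served for the comparison of the HD effect between granules and exosomes, for a correlation of the libraries and in 1 alternative fit.

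RNA granules are membrane-less assemblies of messenger RNA, small RNA and RNA-binding protein. Stress granules gather mRNAs whose translation has stopped at initiation, while processing bodies gather proteins of mRNA decay. Huntington's disease is caused by an expanded CAG repeat in HTT, which encodes huntingtin, a scaffold protein of vesicle and RNA transport. Mutant huntingtin and several of its partners are known to associate with granule proteins. For RNA isolated from granules, a higher level of a transcript in the cell and a stronger recruitment into granules cannot be told apart.

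In edgeR no gene passed the test between HD and control granules, with or without HD granule 3, the library that stood apart from all others, whereas DESeq2 and voom made some calls. Among the named genes, the smallest p values with all libraries belonged to ANKRD1 and an interferon-induced pair, IFI44 and IFIT2. ANKRD1 is a nuclear ankyrin-repeat protein whose gene responds to the YAP co-activator. All 3 were higher in every HD library than in any control library. When HD granule 3 was left out, several lists of short transcripts had median log2 fold changes of 0.54 to 0.87: mRNAs of ribosomal and respiratory-chain proteins, snoRNAs, scaRNAs and snRNAs. Their medians were smaller but also positive with all libraries. The median of replication-dependent histone mRNAs was only 0.10 without HD granule 3. None of these lists held a called gene in the edgeR test.

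The sequences below belong to the genes that carry those patterns. The first pair are the 250 bases before the RefSeq start of IFI44 (GRCh38.p14, chr1:78649539-78649788, plus strand) and of ANKRD1 (chr10:90921088-90921337, minus strand). They are shown because the HD and control libraries of these genes did not overlap.
IFI44: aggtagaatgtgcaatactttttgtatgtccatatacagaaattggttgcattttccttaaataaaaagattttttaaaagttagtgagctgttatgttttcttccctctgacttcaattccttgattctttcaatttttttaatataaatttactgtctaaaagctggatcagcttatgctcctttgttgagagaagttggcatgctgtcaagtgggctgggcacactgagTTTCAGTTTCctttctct
ANKRD1: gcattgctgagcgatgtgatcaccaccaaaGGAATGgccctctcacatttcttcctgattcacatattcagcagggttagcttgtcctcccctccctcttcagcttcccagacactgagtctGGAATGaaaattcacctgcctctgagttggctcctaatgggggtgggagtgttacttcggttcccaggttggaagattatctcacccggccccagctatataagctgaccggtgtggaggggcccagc
Capitals in IFI44 mark the core of the interferon-stimulated response element on the other strand, which reads GAAA, any 2 bases and GAAA, 18 to 9 bases before the start. On either strand, 3.02% of 35116 RefSeq promoter windows of this length held it. Capitals in ANKRD1 mark GGAATG, the core bound by TEAD factors, the DNA-binding partners of YAP. Its copies begin 220 and 128 bases before the start, and 11.9% of the windows held this motif on either strand. IFIT2 is named without a sequence.

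A set of 3 ribosomal protein genes is shown from 20 bases before to 10 bases after the RefSeq start, since mRNAs of this family were high in 3 HD granule libraries. RPL39 (chrX:119791621-119791650, minus strand), RPL38 (chr17:74203658-74203687, plus strand) and RPL26 (chr17:8383184-8383213, minus strand) encode proteins of the large ribosomal subunit.
RPL39: gctcgttcttccgccagcttCCCTCCTCTT
RPL38: ccggaaacggaagtctcgttCTTTTTCgtc
RPL26: accggaagcagcgtgtagttCTCTTCCCTT
Capitals mark the unbroken run of C and T from the start on, the 5' terminal oligopyrimidine (TOP) tract through which growth signalling controls translation of these mRNAs. A C followed by at least 4 pyrimidines stood at the start of 47 of the 65 tested ribosomal protein genes found in the promoter table (72.3%). Of all 35116 windows, 4.07% had it. A ribosomal protein gene counted if any of its windows matched, so the first share is per gene and the second per window. A match describes the letters only.

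The small RNAs are represented by SNORA66, an H/ACA snoRNA encoded on chromosome 1 (92840719 to 92840851, plus strand), and RNU4-2, a gene of U4 spliceosomal RNA on chromosome 12 (120291763 to 120291903, minus strand), both from GENCODE 29 on GRCh38.
SNORA66: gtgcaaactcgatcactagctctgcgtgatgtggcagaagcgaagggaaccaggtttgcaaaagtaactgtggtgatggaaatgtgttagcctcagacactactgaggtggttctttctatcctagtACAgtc
RNU4-2: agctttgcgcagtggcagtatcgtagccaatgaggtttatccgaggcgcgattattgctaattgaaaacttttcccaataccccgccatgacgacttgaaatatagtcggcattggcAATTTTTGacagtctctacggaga
Capitals mark the ACA box of SNORA66, which stands at a fixed distance from the 3' end of this class, and the Sm site of U4, where the ring of Sm proteins binds.

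HD granule libraries held 26960097 to 35823592 estimated reads and control granule libraries 17393605 to 38355241. Named genes took 17729424 to 23898884 of the reads in HD granules and 11355356 to 24514989 in control granules. The other reads were assigned to entries without a gene name, 27.4% to 37.4% of the reads of HD granules and 24.9% to 59.2% of those of control granules. Control granule 2 held the highest of these shares. HD granule 3 stood apart: its log2 levels correlated with the other 9 granule libraries at a median r of 0.756, whereas pairs among those 9 had a median r of 0.949. Its median r with 9 exosome libraries, HD exosome 4 left out, was 0.872, above the medians of every other granule library (0.664 to 0.797). These correlations are across genes and describe the libraries only.

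HD granule 3 differed from the other 4 HD libraries in named RNA groups, given here as a description. MT-ND5, a mitochondrially encoded subunit of respiratory complex I, had 7619 CPM (reads scaled to a common library size) in HD granule 3, whereas the other HD libraries had 202 to 228 CPM. MT-CO2, a subunit of cytochrome oxidase, had 365 CPM there and 6.37 to 15.3 CPM in the other HD libraries. EEF2, the translocase of translation elongation, had 6680.3 CPM there and 761 to 1436 CPM in the others. PKM, a glycolytic enzyme, had 852 CPM there and 118 to 159 CPM in the others. Conversely, SNORA53, SNORA81 and SNORD118 were listed at 0 TPM (a level per transcript length) in HD granule 3. SNORA53 had at least 1369 TPM in each of the other HD libraries. Some small RNA genes went the other way and were among those farthest above the other HD libraries. The snRNA gene RNVU1-31 had 320 TPM in HD granule 3 and 0 TPM in the other HD libraries. SNORA73A had 1016 TPM there, with a median of 0 TPM and a maximum of 7289 TPM in the others. Mitochondrial RNA took 4.23% of the reads of HD granule 3 and 0.605% to 0.783% in the other HD libraries. Small nucleolar and Cajal body RNA took 0.0641% there and 1.33% to 1.98% in the other HD libraries. Most fold changes below are therefore given with and without this library, and each names its fit where it is given once.

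The first question was whether any gene differed between HD and control granules. With all 10 libraries, 0 of 16750 genes passed an adjusted p of 0.05 in the quasi-likelihood test of edgeR with Benjamini-Hochberg adjustment (0.0%). The smallest adjusted p was 0.286, and 215 genes (1.28%) had an unadjusted p under 0.05, 116 of them higher in HD granules (0.693%) and 99 lower (0.591%). When HD granule 3 was left out, 0 of 16734 genes passed (0.0%), with a smallest adjusted p of 0.0977. Then 1410 genes (8.43%) had an unadjusted p under 0.05, 1120 of them higher (6.69%) and 290 lower (1.73%). The balance of directions depended on the scaling. With library size alone it was 39 higher and 366 lower with all libraries, and 450 higher and 1311 lower without HD granule 3.

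Other tools made calls on the same counts. DESeq2 called 4 genes with all 10 libraries, all higher in HD granules (0.0239%), and limma's voom with sample quality weights called 2 higher (0.0119%) and 3 lower (0.0179%). In the fit without HD granule 3, DESeq2 called 129 genes higher (0.771%) and 1 lower (0.00598%), and voom 983 higher (5.87%) and 286 lower (1.71%), with 128 genes called by both. DESeq2 gave an adjusted p to only 2135 abundant genes in that fit, whereas its shares above are of all 16734 genes tested. They cannot be set against the shares of voom for that reason. With HD granule 1 left out as well, edgeR called 388 genes higher and 32 lower (2.23% and 0.184% of 17401), and 112 of the DESeq2 calls were among them. HD granule 1 was thus a second library on which the number of calls turned. With 1 surrogate variable as a covariate, edgeR called 0 genes in both fits, with 1074 and 454 genes at an unadjusted p under 0.05.

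Among 11674 genes at 5 CPM or more, log2 fold changes had a median standard error of 0.26 with all libraries, and 69.1% had a 95% confidence interval within 1 log2 unit of no change. The median standard error was 0.20 over 11608 genes without HD granule 3, and that share was 74.5%.

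**Figure D1:**
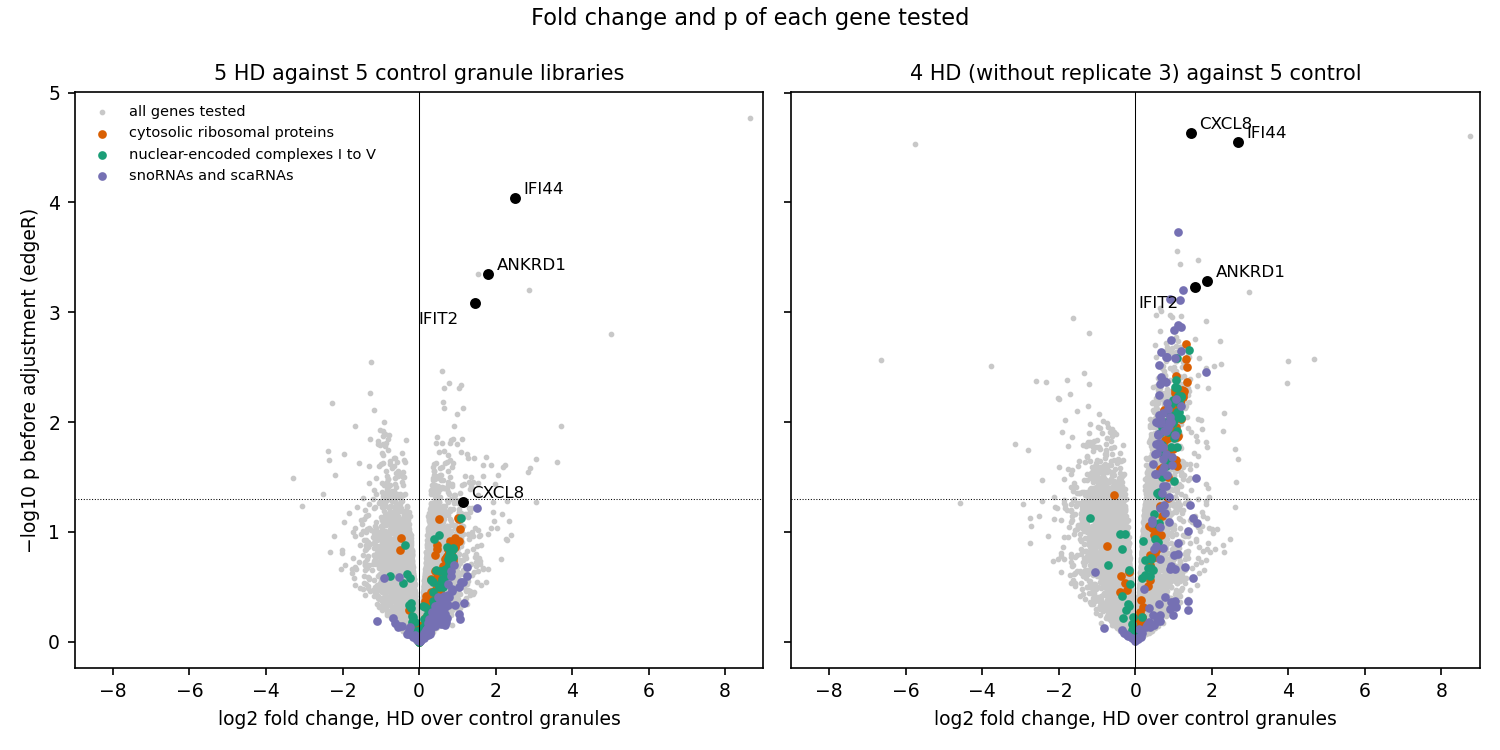
Each point is a gene, with the log2 fold change of HD over control granules on the x axis and −log10 of the unadjusted edgeR p on the y axis, for all 10 libraries (left) and without HD granule 3 (right). The dotted line marks an unadjusted p of 0.05 in edgeR. Ribosomal protein, respiratory-chain and snoRNA genes lie mostly right of 0, and more of them lie above the line in the right panel, where CXCL8 and IFI44 share an adjusted p of 0.0977.

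IFI44 (chr1:78649789-78664078), an interferon-induced protein gene, had the smallest p of the named genes with all 10 libraries. It had 1.98, 3.74, 1.63, 4.75 and 4.00 CPM in HD granules, against 0.378, 0.356, 0.836, 0.766 and 0.427 CPM in control granules. All 5 HD libraries, HD granule 3 included, lay above all 5 control libraries, although the gene was read only 37 to 100 times in HD and 5 to 19 times in control libraries. Its log2 fold change was 2.51 ± 0.42 (SE), with an unadjusted p of 9.12e-05 and an adjusted p of 0.764 in edgeR. It was 2.69 ± 0.38 without HD granule 3, with an adjusted p of 0.0977. DESeq2 gave it an adjusted p of 3.33e-04 with all libraries, and voom gave 0.0139.

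IFIT2 (chr10:89302046-89309271) encodes an interferon-induced protein that binds RNA. It had 1.93, 3.24, 1.94, 2.66 and 2.79 CPM in HD granules, against 0.756, 0.926, 1.01, 0.524 and 1.35 CPM in control granules, again without overlap. The log2 fold change was 1.46 ± 0.32 (adjusted p = 1.00, edgeR) with all libraries and 1.56 ± 0.32 (adjusted p = 0.489, edgeR) without HD granule 3. Its neighbour IFIT3 averaged 1.97 ± 0.52 CPM in HD granules and 1.17 ± 0.216 CPM in control granules (SD, n = 5 each), and its groups overlapped. IFIT3 had a log2 fold change of 0.74 ± 0.28, and 0.71 ± 0.29 without HD granule 3. Most of the interferon list showed no such difference. Of 30 listed genes, 23 were tested, and the median log2 fold change was 0.01, beside 0.04 over all genes tested. An unadjusted p under 0.05 was found for 3 on the higher side (IFI44, IFIT2 and IFIT3) and 0 on the lower side. That is 13.04% on the higher side, beside 0.693% of all genes tested. These 3 genes were themselves named for having the smallest p of the list in this fit. Without HD granule 3, the same 3 genes were on the higher side (again 13.04%, beside 6.69% of all genes tested). IFI35 was on the lower side (4.35%, beside 1.73% of all genes tested), and the median was -0.03. IRF9, ISG15 and IFIT1 were among the members tested that had no such p.

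ANKRD1 (chr10:90912096-90921087) had 62.4, 84.2, 97.9, 211 and 123 CPM in HD granules, against 16.0, 37.7, 33.9, 31.0 and 46.6 CPM in control granules. The lowest HD library was above the highest control library, and HD granule 3 lay in the middle of its group. Its log2 fold change was 1.81 ± 0.36 (unadjusted p = 4.46e-04, adjusted p = 1.00, edgeR), a fold of 3.50. It was 1.88 ± 0.38 without HD granule 3, and DESeq2 called the gene with all 10 libraries (adjusted p = 0.00656). CCN2, another gene that YAP activates, averaged a log2 fold change of 0.76 ± 0.33 (0.85 ± 0.34 without HD granule 3), but HD granule 2 alone held 17.1 CPM and the groups overlapped.

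TUBB2A, a beta-tubulin, had 23.03, 27.4, 37.4, 30.7 and 26.0 CPM in HD granules, against 18.8, 19.8, 19.6, 17.8 and 19.0 CPM in control granules. The control libraries lay close together and below every HD library. The log2 fold change was 0.61 ± 0.16 (adjusted p = 1.00, edgeR), and 0.51 ± 0.12 without HD granule 3. DUSP6, the phosphatase that switches off ERK kinases, had 4.98 to 8.36 CPM in HD granules (median 6.58) and 2.99 to 4.60 CPM in control granules (median 3.70), a log2 fold change of 0.79 ± 0.22, and 0.85 ± 0.22 without HD granule 3. TMSB10, which binds actin monomers, averaged 68.6 ± 29.2 CPM in HD granules and 31.8 ± 8.09 CPM in control granules (SD, n = 5 each), and HD granule 1 overlapped the controls. Its log2 fold change was 1.11 ± 0.31 with all libraries and 1.16 ± 0.33 without HD granule 3. PPP1R13B, a co-factor of p53, had 0.66 ± 0.19 with all libraries and 0.64 ± 0.19 without HD granule 3, with 1 HD library inside the control range. In the list of actins, tubulins and YAP targets, 4 of 28 tested genes had an unadjusted p under 0.05 on the higher side (ANKRD1, TUBB2A, CCN2 and VIM) and 0 on the lower side. That is 14.3%, beside 0.693% of all genes tested, but ANKRD1 and TUBB2A were themselves named for their small p in this fit. The median log2 fold change of the list was 0.27, and 0.09 without HD granule 3. In the second fit the share was again 14.3%, beside 6.69% of all genes tested. There VIM had no such p and MYL12A had one on the higher side.

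Of all genes tested with 10 libraries, 23 had every HD library above every control library (0.137%), and 37 had every HD library below (0.221%). Among the lower genes, KLHL9, a substrate adaptor of a ubiquitin ligase, had 69.8, 65.1, 40.5, 51.5 and 63.9 CPM in HD granules, against 77.9, 78.7, 76.6, 75.3 and 87.1 CPM in control granules. The HD values were spread widely under a tight control group. Its log2 fold change was -0.44 ± 0.16 (unadjusted p = 0.0193, adjusted p = 1.00, edgeR), and -0.32 ± 0.12 without HD granule 3. CHML, a Rab escort protein, averaged 96.3 ± 7.98 CPM in HD granules and 121 ± 7.51 CPM in control granules, without overlap, a log2 fold change of -0.33 ± 0.11, and -0.31 ± 0.11 without HD granule 3. It was the single lower gene called by DESeq2 without HD granule 3 (adjusted p = 0.0334). ZNF772, a zinc finger gene, had a log2 fold change of -0.39 ± 0.15 (-0.37 ± 0.14 without HD granule 3), also without overlap.

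COMMD7, a COMM domain protein, had 7.23, 6.88, 7.81, 4.71 and 6.74 CPM in HD granules, against 10.1, 7.20, 13.1, 21.7 and 10.9 CPM in control granules. The groups met at control granule 2, and control granule 4 was the highest by far. This gave a log2 fold change of -0.92 ± 0.29, and -0.97 ± 0.31 without HD granule 3. BCL2L2-PABPN1, a readthrough locus whose reads are shared with both of its parent genes, is uncertain for that reason (-0.59 ± 0.22, and -0.53 ± 0.22 without HD granule 3). None of these lower genes had an adjusted p under 0.999 in edgeR with all libraries.

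**Figure D2:**
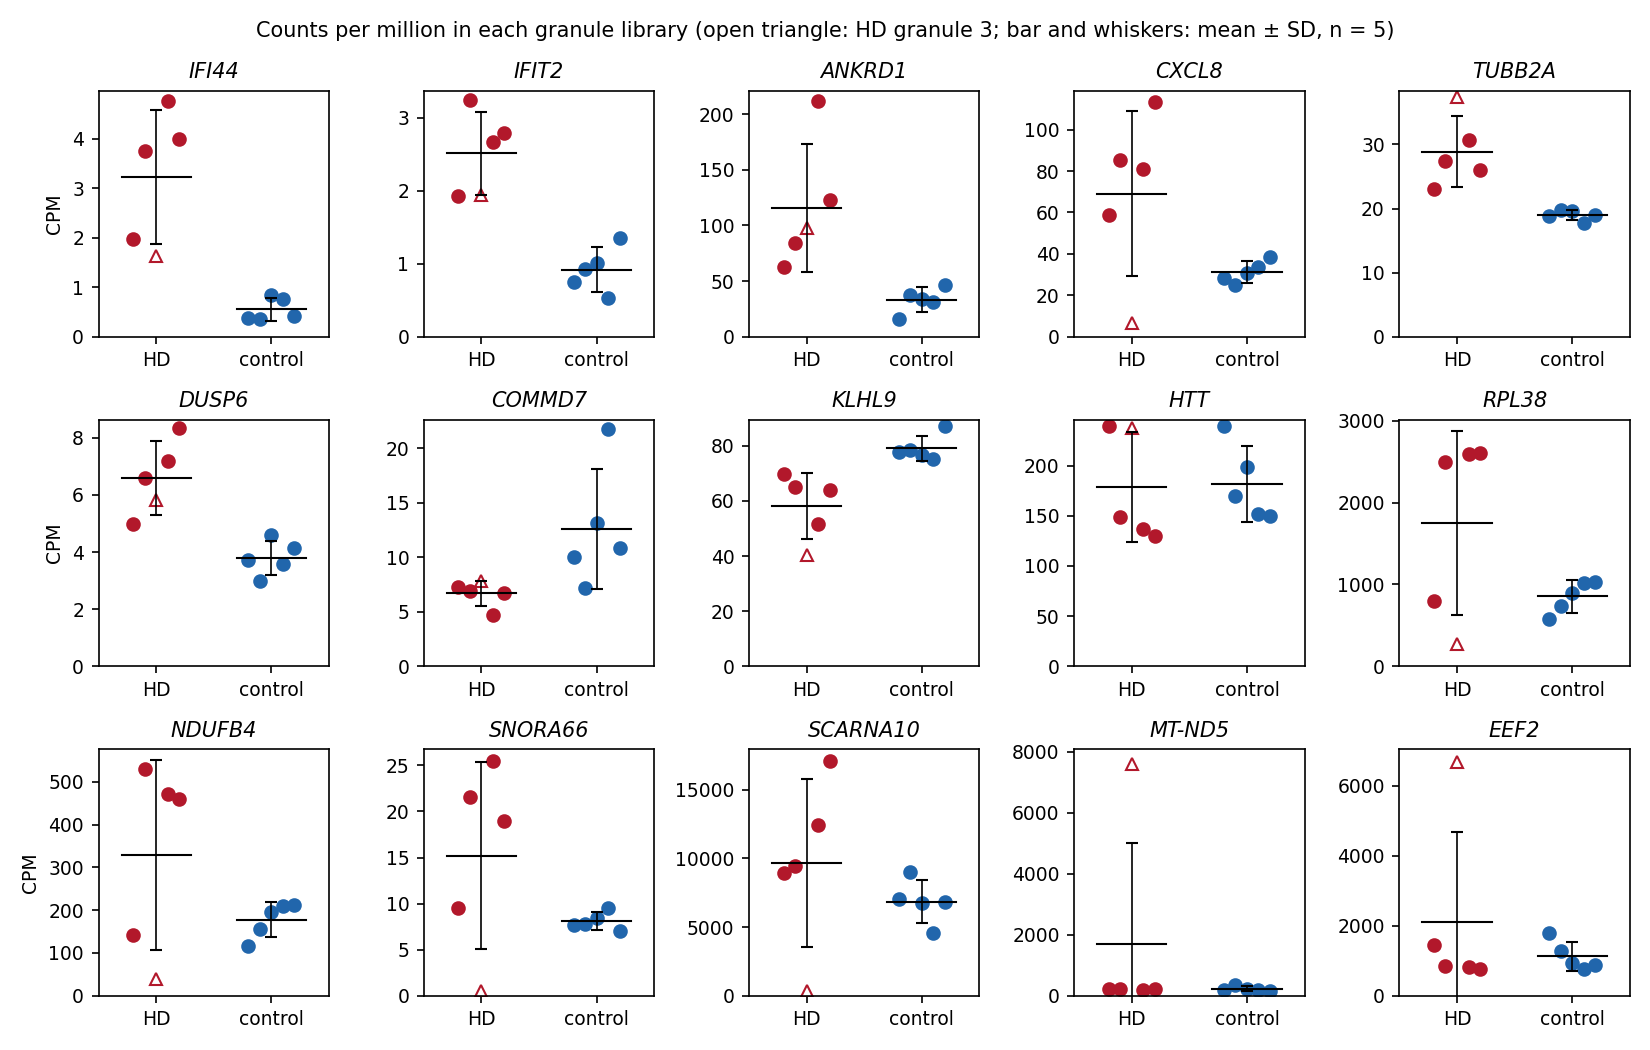
CPM of 15 genes in each granule library, HD granules left of control granules, with the mean ± SD as bar and whiskers (n = 5, clipped at 0) and HD granule 3 as an open triangle. IFI44, IFIT2, ANKRD1, TUBB2A and DUSP6 show HD libraries above all controls and KLHL9 below, while RPL38, NDUFB4 and SNORA66 show 3 high HD libraries, HD granule 1 near the controls and HD granule 3 below them.

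CXCL8, which encodes the chemokine interleukin-8, depended on HD granule 3. It had 58.7, 85.3, 6.74, 80.8 and 114 CPM in HD granules, against 28.3, 24.8, 30.8, 33.6 and 38.4 CPM in control granules. All controls lay below 4 HD libraries and above HD granule 3. The log2 fold change was 1.15 ± 0.53 with all libraries (unadjusted p = 0.0537) and 1.46 ± 0.20 without HD granule 3 (unadjusted p = 2.35e-05, adjusted p = 0.0977, edgeR). Voom gave it an adjusted p of 0.00428 in the second fit, and DESeq2 gave none. TNFAIP3, which encodes A20, an inhibitor of NF-kappaB signalling, had 23.3, 25.4, 16.7, 25.1 and 27.3 CPM in HD granules, against 16.6 to 20.3 CPM in control granules. Its log2 fold change without HD granule 3 was 0.54 ± 0.12 (adjusted p = 0.489, edgeR).

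LPAR3, a receptor for lysophosphatidic acid, had a log2 fold change of 0.68 ± 0.15 without HD granule 3, with 4 HD libraries at 74.9 to 113 CPM, HD granule 3 at 24.9 CPM and control granules at 56.3 to 73.1 CPM. CHURC1-FNTB, a readthrough locus that shares reads with its parents, had 1.18 ± 0.26 in the same fit. On the lower side without HD granule 3 were AATK, a kinase of neurons (-0.84 ± 0.27), GASK1A (-0.73 ± 0.23), the protease gene CTSH (-0.61 ± 0.20) and BIN3, a BAR domain protein (-0.57 ± 0.19). In HD granule 3, CTSH had 19.2 CPM and BIN3 13.7 CPM, the highest of the 10 libraries for both genes. These 6 genes were named for their small p in the fit without HD granule 3, where their adjusted p values lay between 0.489 and 0.492 in edgeR.

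Messenger RNAs of the cytosolic ribosome had positive median fold changes, which were larger once HD granule 3 was left out. RPL38 had 802, 2492, 273, 2593 and 2606 CPM in HD granules, against 573, 733, 899, 1023 and 1034 CPM in control granules. HD granules 2, 4 and 5 lay far above the highest control library, HD granule 1 lay within the control range and HD granule 3 below it. The log2 fold change was 1.04 ± 0.53 (adjusted p = 1.00, edgeR) with all libraries and 1.34 ± 0.34 (unadjusted p = 0.00266, adjusted p = 0.489) without HD granule 3. RPL39 had 3896, 12523, 672, 14089 and 13636 CPM in HD granules, against 3877, 5234, 4479.5, 5615 and 4909 CPM in control granules. HD granules 2, 4 and 5 were again the high libraries. RPL26 had a log2 fold change of 1.36 ± 0.37 without HD granule 3 and 1.06 ± 0.58 with it. RPL37 had 1.32 ± 0.32 without HD granule 3 and 1.02 ± 0.52 with it.

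Of 50 tested large-subunit proteins, 27 had an unadjusted p under 0.05 on the higher side without HD granule 3 and 1 on the lower side. These are 54% and 2.0% of the list, where 6.69% and 1.73% of all genes tested had such a p. The median log2 fold change was 0.69, and with all libraries it was 0.47 with 0 such genes in either direction. Of 31 small-subunit proteins, 17 had such a p on the higher side (54.8%) and 0 on the lower side without HD granule 3, with a median of 0.72, and 0 in either direction with all libraries (median 0.50). RPS27A, a ribosomal protein fused to ubiquitin, had a log2 fold change of 1.08 ± 0.32 without HD granule 3 and 0.80 ± 0.48 with it. DESeq2 called 18 large-subunit and 10 small-subunit genes in that fit, all higher. It called 129 genes higher there among the 2135 that it gave an adjusted p. The mean log2 level of the large-subunit list against the control mean was -0.02, 0.87, -1.02, 0.63 and 0.91 in HD granules, against -0.54, -0.03, -0.08, 0.41 and 0.24 in control granules, so HD granule 1 lay among the controls. Ribosomal protein mRNAs have many processed pseudogenes, and reads may be divided between them.

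Nuclear-encoded subunits of the respiratory chain, which are made in the cytosol and imported by mitochondria, had the same high and low HD libraries. NDUFB4, a subunit of complex I, had 141, 531, 39.4, 470.3 and 459 CPM in HD granules, against 117, 156, 195, 209 and 212 CPM in control granules. It had a log2 fold change of 1.19 ± 0.34 without HD granule 3 and 0.89 with all libraries. ATP5ME, a small subunit of ATP synthase, had 1.41 ± 0.34 without HD granule 3. Of 38 complex I genes, 18 had an unadjusted p under 0.05 on the higher side in that fit (47.4%, median 0.54). So had 21 of 42 genes of complexes II to V (50%, median 0.63), and both lists had 0 on the lower side. Mitochondrial ribosomal proteins had 18 genes of 78 with such a p on the higher side (23.1%) and a median of 0.09. Of all genes tested in that fit, 6.69% had such a p on the higher side and 1.73% on the lower side. With all 10 libraries, 0 genes of these 3 lists had an unadjusted p under 0.05 in either direction.

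Of the members named from other lists, TPT1, a TOP mRNA that encodes a small tumour-associated protein, had 1517, 3852, 512, 3039 and 4068 CPM in HD granules, against 1017, 1226, 1101, 1987 and 2007 CPM in control granules. LSM3, part of the ring that binds oligoadenylated mRNA during decay, had a log2 fold change of 1.33 ± 0.39 without HD granule 3. DYNLL1, the dynein light chain, had 1.15 ± 0.38 in the same fit. With all libraries neither gene had an unadjusted p under 0.05 in edgeR. EEF2, a longer TOP mRNA, had -0.20 without HD granule 3 and 0.90 ± 0.63 with it. The mean log2 level of the 25 TOP translation factors against the control mean was 0.06, 0.23, 0.03, 0.06 and 0.30 in HD granules, against -0.26, 0.01, -0.10, 0.16 and 0.19 in control granules, so the groups overlapped. With all libraries 0 of the 25 had an unadjusted p under 0.05 and 3 had one on the higher side without HD granule 3.

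The differences were graded by transcript length. For protein-coding genes, the median log2 fold change without HD granule 3 was 0.69 over 100 genes with transcripts under 500 bases and 0.21 over 1071 genes of 500 to 1000 bases. It was -0.03 for 1000 to 2000 and for 2000 to 4000 bases, -0.06 for 4000 to 8000 bases and -0.16 over 302 genes beyond 8000 bases. Among the 100 genes under 500 bases, 53 had an unadjusted p under 0.05 on the higher side and 0 on the lower side. Of all genes tested in this fit, 6.69% and 1.73% had such a p. The 130 DESeq2 calls without HD granule 3 had a median length of 646 bases, while the 2135 abundant genes that DESeq2 could call had 2706. The share of coding reads on genes with transcripts under 1000 bases was 21.4%, 34.9%, 9.58%, 29.9% and 32.6% in HD granules, against 16.0%, 22.1%, 21.9%, 26.5% and 22.2% in control granules. The groups overlapped, and the difference did not pass an exact two-sided permutation test with all libraries (p = 0.437) or without HD granule 3 (29.7% ± 5.88 in HD granules, 21.8% ± 3.71 in control granules, p = 0.0794). Replication-dependent histone mRNAs had a median log2 fold change of -0.14 with all libraries and 0.10 without HD granule 3. In the second fit 5 of 45 had an unadjusted p under 0.05 on the higher side (11.1%) and 0 on the lower side. Their mean log2 level in HD granule 4 was -0.61 against the control mean, below every control library. Whether transcript length, fragment size or the identity of the mRNAs accounts for the difference of the ribosomal and respiratory lists was not tested.

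**Figure D3:**
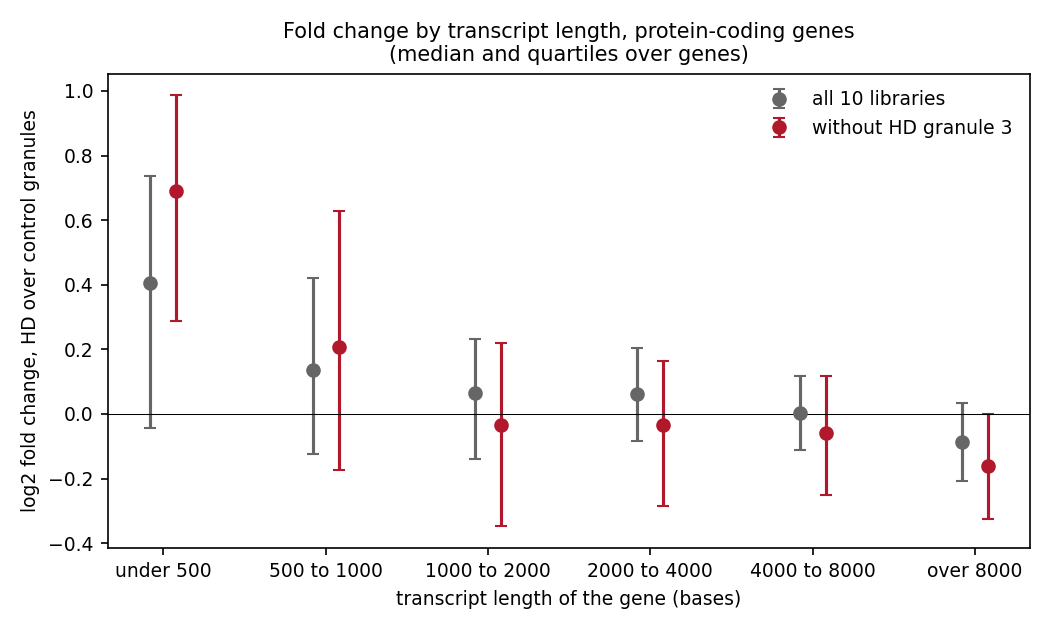
Median log2 fold change of HD over control granules on the y axis by transcript length on the x axis, for protein-coding genes, with whiskers at the quartiles over genes. Without HD granule 3 the median was 0.69 under 500 bases and -0.16 beyond 8000 bases, and with all libraries it was 0.40 and -0.09.

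Lists of small nuclear and nucleolar RNA genes had positive median fold changes in both fits, although the share of all reads on snRNA was lower in HD granules. SnoRNAs guide the chemical modification of ribosomal RNA, scaRNAs guide that of spliceosomal RNA in Cajal bodies, and both stay mainly in the nucleus. SNORA66 had 9.53, 21.6, 0.516, 25.5 and 18.9 CPM in HD granules, against 7.63, 7.77, 8.48, 9.51 and 7.04 CPM in control granules. HD granule 1 lay just above the highest control, and HD granule 3 had hardly any reads. This gave a log2 fold change of 1.24 ± 0.26 without HD granule 3 (unadjusted p = 6.30e-04, adjusted p = 0.489, edgeR) and 0.91 ± 0.67 with it. SNORA38 had 1.17 ± 0.25 without HD granule 3 and 0.83 ± 0.65 with it. The box C/D snoRNA SNORD9 had 1.10 ± 0.25 without HD granule 3 and 0.77 ± 0.70 with it.

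Of 209 listed H/ACA snoRNA genes, 92 were abundant enough to test without HD granule 3. An unadjusted p under 0.05 was found for 47 on the higher side (51.1%) and 1 on the lower side, with a median of 0.71. Of all genes tested in that fit, 6.69% and 1.73% had such a p. With all libraries 0 of 86 tested H/ACA genes had such a p in either direction, and the median was 0.37. In the fit without HD granule 3, 25 of them had 4 HD libraries above all controls, where 1.02% of all genes tested did. Of 302 box C/D genes only 18 could be tested in that fit, and 10 had an unadjusted p under 0.05 on the higher side (median 0.87), as had 6 of 17 Cajal body scaRNAs (35.3%, median 0.82). With all libraries, 0 of 19 box C/D genes (median 0.52) and 0 of 17 scaRNAs (median 0.48) had such a p. SCARNA10, the most abundant of them, had 8927, 9432, 371, 12440.4 and 17104 CPM in HD granules, against 7054, 8997, 6782, 4545 and 6832 CPM in control granules, a log2 fold change of 0.83 ± 0.27 without HD granule 3. SCARNA2 had 1.86 ± 0.49 without HD granule 3 and 1.53 ± 0.73 with it, with HD granule 2 at 2853 CPM and control granule 5 at 151 CPM.

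Of 25 tested spliceosomal snRNAs, 13 had an unadjusted p under 0.05 on the higher side without HD granule 3 (52%, median 0.75). With all libraries 1 had such a p, RNVU1-7 (4.0%, median 0.42). Of all genes tested, 6.69% had such a p without HD granule 3 and 0.693% with all libraries. With 1 surrogate variable and all libraries, the medians were -0.35 for H/ACA, -0.47 for box C/D, -0.22 for scaRNA and -0.26 for snRNA genes. RNU4-2 had 654, 782, 21.4, 1033 and 874 CPM in HD granules, against 455, 703, 517, 529 and 526 CPM in control granules, and its log2 fold change was 0.64 ± 0.17 without HD granule 3. RNU5E-6P, a U5-related gene copy, had 1.17 ± 0.22 without HD granule 3, and RNVU1-7, a U1 variant, had 1.14 ± 0.35 with all libraries and 0.92 ± 0.31 without HD granule 3. Copies of these genes share sequence with each other and with unnamed entries, so the split of reads among them is uncertain. RNY3, a Y RNA that binds the Ro60 protein, had 1.08 ± 0.27 without HD granule 3, and no unadjusted p under 0.05 in edgeR with all libraries. By share of all reads, snoRNA and scaRNA together took 1.34%, 1.33%, 0.0641%, 1.52% and 1.98% in HD granules, against 1.20%, 0.863%, 1.03%, 0.745% and 1.10% in control granules. The means without HD granule 3 were 1.54% ± 0.304 in HD granules (SD, n = 4) and 0.988% ± 0.184 in control granules (SD, n = 5). The exact two-sided permutation p was 0.0159, the smallest that 4 against 5 libraries allow, and 0.206 after adjustment over 13 RNA classes. None of the 13 class shares passed with all libraries either, where the smallest exact p was 0.0873, for mitochondrial RNA, before adjustment. The snRNA share with all libraries was 0.323% ± 0.371 in HD granules and 0.632% ± 0.708 in control granules (SD, n = 5 each). Without HD granule 3 it was 0.383% ± 0.400 in HD granules (SD, n = 4). In TPM with all libraries, the snoRNA and scaRNA share was lower in HD granules.

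The most abundant RNAs per transcript length did not separate the groups. RPPH1, the RNA subunit of RNase P, had 48890.3, 24982, 16808, 40708 and 34768 TPM in HD granules, against 34131, 48681, 47226, 43679 and 36013 TPM in control granules. RMRP, the RNA of the related RNase MRP, averaged 9410 ± 3502 TPM in HD granules and 7775 ± 1465 TPM in control granules (SD, n = 5 each). Its log2 fold change without HD granule 3 lay between 0.12 and 0.44 under the alternatives run. RNU1-1, a U1 snRNA gene, was listed at 0 in 3 HD and 3 control libraries and reached 150140.3 TPM in control granule 5. It was not tested.

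Mitochondrially encoded mRNAs gave the opposite dependence on HD granule 3. All 13 had a positive log2 fold change with all libraries (median 1.15), and 4 had an unadjusted p under 0.05 on the higher side (30.8%, beside 0.693% of all genes tested). The median was 0.22 without HD granule 3, with 8 of 13 positive and 1 such p (7.69%, near the 6.69% of all genes tested). MT-ND5 had 224, 219.5, 7619, 202 and 228 CPM in HD granules, against 186, 365, 225, 193 and 161 CPM in control granules. The log2 fold change of 2.91 ± 1.13 thus rested on 1 library and was -0.02 ± 0.21 without it. MT-CO2 and MT-ATP8 behaved in the same way (3.05 ± 1.14 and 2.06 ± 0.82 with all libraries, 0.22 ± 0.34 and 0.35 ± 0.31 without HD granule 3). MT-ND3 differed: it had 271, 635, 462, 585 and 759 CPM in HD granules, against 173, 317, 405, 327 and 257 CPM in control granules, and its log2 fold change was 0.87 ± 0.30 with and 0.95 ± 0.31 without HD granule 3.

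**Figure D4:**
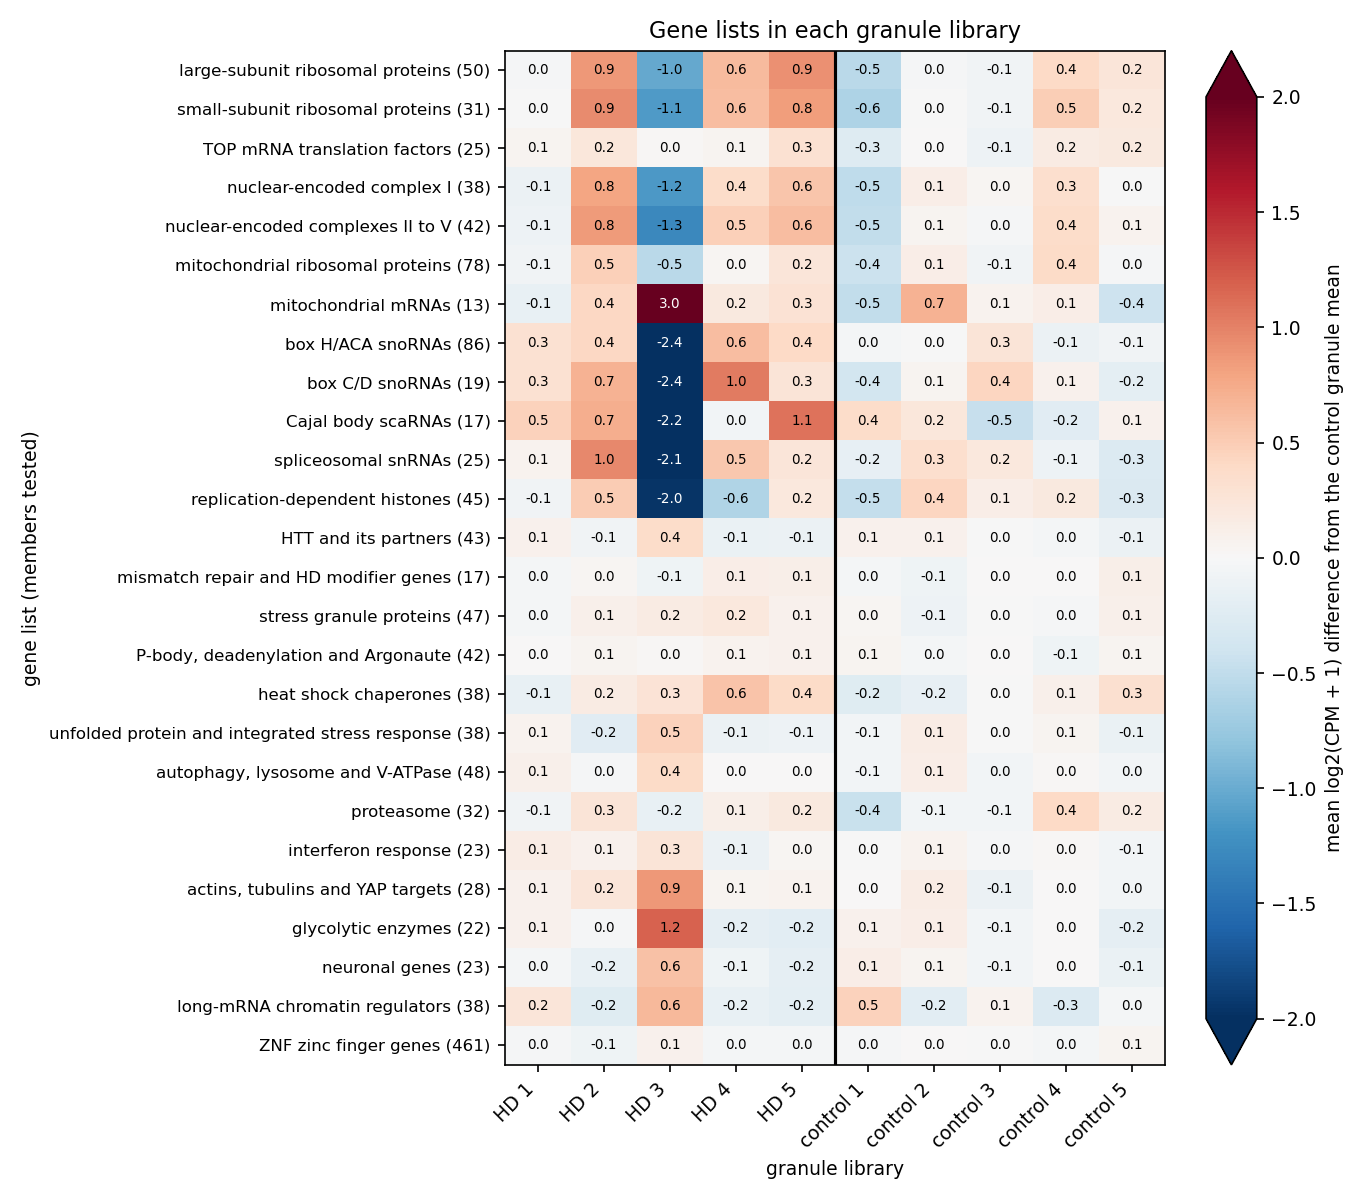
Rows are gene lists with the number of members tested, columns are the 10 granule libraries (HD left of the line, control right), and colour and digits give the mean log2(CPM + 1) difference from the control granule mean. HD granule 3 is low for ribosomal protein, respiratory-chain and small nuclear RNA lists and high for mitochondrial mRNAs (3.0) and glycolytic enzymes (1.2), whereas lists of HTT partners, stress granule proteins and P-body proteins stay within 0.4 of the control mean in every library.

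HTT itself did not separate the groups. It had 239, 149, 237, 137 and 130.4 CPM in HD granules, against 239.9, 169.6, 199, 152 and 150.2 CPM in control granules. HD granules 1 and 3 and control granule 1 were the high libraries, and the other HD libraries lay under all controls. It had a log2 fold change of -0.03 ± 0.23 (95% confidence interval -0.53 to 0.47, unadjusted p = 0.907, edgeR) with all libraries and -0.13 ± 0.22 without HD granule 3. These reads do not tell an introduced HTT sequence from the endogenous gene, so they do not check the labels. The most abundant HTT transcript was HTT-220, a retained-intron form, with a mean of 2.79 TPM in HD granules and 2.80 TPM in control granules. The full-length coding transcript HTT-201 had 2.47, 0.458, 9.81, 0.252 and 0.319 TPM in HD granules, against 2.92, 0.630, 1.21, 0.893 and 1.09 TPM in control granules, so its mean in HD granules rested on HD granule 3.

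Of 43 tested genes of huntingtin partners, 0 had an unadjusted p under 0.05 in either direction in both fits, and the median log2 fold changes were 0.05 with all libraries and -0.03 without HD granule 3. HAP1, which links huntingtin to motor proteins, had -0.47 ± 0.34 with all libraries and -0.54 ± 0.35 without HD granule 3. Among 17 mismatch repair and other genetic modifiers of the disease, 0 had such a p with all libraries. Without HD granule 3, 2 had one on the higher side (11.8%, beside 6.69% of all genes tested) and 0 on the lower side. MSH3, the mismatch repair protein that acts on CAG repeat loops, had 83.0, 140.2, 47.1, 162 and 133 CPM in HD granules, against 84.3 to 100.5 CPM in control granules. HD granules 2, 4 and 5 were above the controls, HD granule 1 just under them and HD granule 3 far under, and the log2 fold change was 0.55 ± 0.18 without HD granule 3 (adjusted p = 0.489, edgeR). MSH6 had -0.27 ± 0.15 with all libraries and -0.22 ± 0.15 without HD granule 3. ATXN2, a stress granule protein and itself a polyglutamine disease gene, had a log2 fold change of 0.38 ± 0.15 with all libraries and 0.36 ± 0.15 without HD granule 3.

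For transcripts of granule proteins, the shares with a small p lay near those of all genes tested without HD granule 3, 6.69% on the higher side and 1.73% on the lower side. With all libraries the shares of all genes tested were 0.693% and 0.591%. Of 47 genes of stress granule proteins, 1 had an unadjusted p under 0.05 on the higher side and 0 on the lower side with all libraries, and 2 (4.26%) and 0 without HD granule 3, with medians of 0.15 and 0.12. P-body, deadenylation and Argonaute genes had 0 of 42 with all libraries and 4 on the higher side without HD granule 3 (9.52%, medians 0.10 and 0.04). The 4 tested reference transcripts of stress granules, long mRNAs such as AHNAK that are known to be enriched there, had a median of -0.18 with all libraries and -0.29 without HD granule 3, and 0 had such a p. Translation initiation and elongation factors had 1 of 34 on the higher side with all libraries and 3 without HD granule 3 (8.82%). EIF1, which guards start codon choice, was among them (0.33 ± 0.14 with all libraries, 0.37 ± 0.13 without HD granule 3).

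Of 38 heat shock chaperones, 36 had a positive log2 fold change with all libraries (median 0.26). On the higher side 2 had an unadjusted p under 0.05 (5.26%, beside 0.693% of all genes tested). In the fit without HD granule 3, 34 were positive (median 0.30) and 1 had such a p (2.63%, under the 6.69% of all genes tested). The mean log2 level of the list in HD granule 1 was -0.14 against the control mean, within the control range. HSPA1B, the inducible HSP70, had 221, 215, 1069, 720.4 and 416 CPM in HD granules, against 172, 161, 264, 271 and 397 CPM in control granules. HD granules 3, 4 and 5 were above all controls and HD granules 1 and 2 within their range. It had a log2 fold change of 1.06 ± 0.46 with all libraries (unadjusted p = 0.0441) and 0.65 ± 0.40 without HD granule 3, while the near-identical HSPA1A may share its reads. STIP1, which joins HSP70 to HSP90, had 0.57 ± 0.24 with all libraries and 0.33 ± 0.15 without HD granule 3. The median of the chaperone list was 0.09 with all libraries and 0.07 without HD granule 3 when libraries were scaled by size alone.

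The unfolded protein and integrated stress response list had 0 of 38 genes with an unadjusted p under 0.05 in both fits (medians 0.08 and 0.00). The autophagy, lysosome and V-ATPase list had 0 of 48 in both fits (medians 0.13 and 0.06). The proteasome list had 0 of 32 with all libraries and 3 on the higher side without HD granule 3 (9.38%). Of all genes tested without HD granule 3, 6.69% had an unadjusted p under 0.05 on the higher side and 1.73% on the lower side. Immediate early genes had 2 of 32 on the higher side with all libraries (6.25%, beside 0.693% of all genes tested) and 3 without HD granule 3 (9.38%), one of them KLF10 (0.66 ± 0.24 and 0.63 ± 0.24). Glycolytic enzymes had 0 of 22 in both fits, with a median of 0.30 with all libraries and -0.04 without HD granule 3. Neuronal genes had 0 of 23 with all libraries and 0 of 21 without HD granule 3. RNA splicing factors had 0 of 48 with all libraries, where 45 were positive (median 0.24). Without HD granule 3, 8 of them had such a p on the higher side (16.7%, median 0.15) and 0 on the lower side. Of 461 ZNF genes, 0 had such a p on the higher and 3 on the lower side with all libraries, and of 462 without HD granule 3, 6 and 8 did.

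Among 203 tested antisense lncRNAs, 2 had an unadjusted p under 0.05 on the higher side and 3 on the lower side with all libraries. That is 0.985% and 1.48%, beside 0.693% and 0.591% of all genes tested. Without HD granule 3, 7 (3.35%) and 3 (1.44%) of 209 did, beside 6.69% and 1.73% of all genes tested. TXNDC11-AS1 had a log2 fold change of -2.26 ± 0.68 (-2.60 ± 0.71 without HD granule 3), with HD granules at 0.253 to 1.39 CPM and control granules at 0.711 to 9.48 CPM. TPT1-AS1 had 1.62 to 1.93 CPM in HD granules and 2.07 to 3.40 CPM in control granules, without overlap (-0.63 ± 0.24, and -0.61 ± 0.24 without HD granule 3). PTPRG-AS1 had 1.42 ± 0.53 with all libraries and 1.52 ± 0.55 without HD granule 3. TCF12-DT, a divergent promoter lncRNA, had at most 0.570 CPM in HD granules and at least 0.605 CPM in control granules (-2.37 ± 0.85, and -2.01 ± 0.77 without HD granule 3), which is a handful of reads.

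Markers of the cell line and of other cells were checked beside these results. Of 7 HEK293 markers 6 were tested, and 2 had an unadjusted p under 0.05 on the higher side with all libraries (LHX1 and VIM). That is 33.3% of those tested, beside 0.693% of all genes tested, and it was 0.0% without HD granule 3. The summed level of the 7 markers was 59.9 to 475 TPM in HD granules, highest in HD granule 3, and 53.9 to 101.04 TPM in control granules. For 8 leukocyte markers the sum was 0.180 to 2.40 TPM in HD granules and 0.242 to 1.54 TPM in control granules, and CD3E, PPBP and RGS18 had under 10 reads over all 10 libraries. For 10 fibroblast and endothelial markers it was 1.94 to 12.2 TPM in HD granules and 1.21 to 2.67 TPM in control granules. Keratinocyte markers summed to 6.26 to 38.1 TPM in HD granules and 5.56 to 17.0 TPM in control granules, and 32 neuronal genes to 44.3 to 232 TPM in HD granules and 38.3 to 77.7 TPM in control granules. HD granule 3 held the highest sum of all 10 libraries for HEK293, leukocyte, fibroblast, keratinocyte and neuronal markers and the lowest of the HD libraries for blood markers. For 11 blood, liver and serum markers it was 12.3 to 63.0 TPM in HD granules and 9.46 to 33.4 TPM in control granules. Haemoglobin genes held the members with an unadjusted p under 0.05: HBA1 had 8.999, 24.4, 1.43, 38.3 and 12.4 CPM in HD granules, against 9.37, 4.49, 2.09, 4.76 and 2.35 CPM in control granules. HBA1 and HBG1 had log2 fold changes of 2.21 ± 0.53 and 1.42 ± 0.53 without HD granule 3, and 1.89 ± 0.72 and 1.14 ± 0.61 with it, with the near-identical HBA2 and HBG2 sharing their reads, while the red cell gene ALAS2 had under 10 reads over all 10 libraries. HD granules 2, 4 and 5 were above all controls for HBA1 and were also the high libraries for ribosomal protein mRNAs. The part of haemoglobin in those results was not tested.

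By detection, 8738 genes had at least 1 TPM in all 5 HD granule libraries and 9261 in all 5 control granule libraries. Both groups shared 8467 genes, 96.9% of the HD set and 91.4% of the control set. Without HD granule 3 the HD set held 8893 genes, of which 8551 were shared.

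Last, the HD effect in granules was set against the HD effect in exosomes of the same cells, in 1 edgeR model over all 20 libraries. HD exosome 4 held only 1074 reads, so the comparison was repeated without it. Of 16154 genes tested with all 20 libraries, 3 differed between the effects at an adjusted p under 0.05, and none of these 3 was among the genes named above. At an unadjusted p under 0.05 there were 778. Without HD exosome 4, 2 of 17002 genes passed, and without HD exosome 4 and HD granule 3, 2 of 16589 did.

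ANKRD1 had a log2 fold change of 1.83 ± 0.32 in granules and 0.74 ± 0.34 in exosomes over all 20 libraries, with an unadjusted p of 0.0279 for the difference and an adjusted p of 0.875 in edgeR. The difference had an adjusted p of 0.871 without HD exosome 4 and of 0.945 without HD granule 3 as well. IFI44 had 2.52 ± 0.61 in granules and 1.85 ± 1.06 in exosomes (adjusted p of the difference 1.00, edgeR). RPL38 had 1.06 ± 0.46 in granules and 0.60 ± 0.47 in exosomes, and HTT had -0.01 ± 0.25 in granules and 0.17 ± 0.26 in exosomes. None of these 4 differences passed the test with or without the 2 libraries.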

How the data were processed

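Stranded total RNA of granule cores from HEK293 cells was read as pairs of 100 bases, per the labels' protocols. The authors trimmed reads and quantified transcripts with Trimmomatic, cutadapt, FastQC and Salmon against GRCh38.p14, per the submitters' processing notes, with no versions stated. Every deposited file gave expected counts (estimated reads, not whole) and TPM per transcript. Expected counts of the 251955 named transcripts were summed per gene and rounded. The 669597 unnamed entries stayed out of gene tests.

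Genes were kept by filterByExpr, scaled by TMM and tested in edgeR 4.0.16 under R 4.3.3 by robust quasi-likelihood, with Benjamini-Hochberg adjustment over all genes tested. The standard error was the log2 fold change divided by the root of F. DESeq2 1.42.0, limma 3.58.1 (voom) and sva 3.50.0 served as alternatives. Scripts were tested on simulated data with 200 changed genes. Class shares were compared by exact permutation. Estimated reads are not independent molecules, and p-values measure the spread between libraries.

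Genes were named by rule. Per direction and fit, up to 10 called genes were taken, or the 5 of smallest p. These were coding or lncRNA genes at 5 CPM or more. HTT and the 5 genes of highest TPM per group were added. Each of 48 gene lists gave up to 4 tested members, those of smallest p with all 10 libraries. List members named in this way were thus chosen for their small p. Genes that describe HD granule 3 were chosen from those farthest from the other HD libraries, not in order of distance. EEF2 and PKM were taken from the lists. The members, lists and rule were chosen with earlier results of these data known. A few genes are not reported here.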

Additional observations from a re-analysis of the deposited data

Results flagged for a closer look

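Single libraries far from the other 4 of their group were sought in class shares, length shares and the CPM of the named genes. Of 162 groups of 5 libraries, 19 held one by Dixon's criterion at its 95% level, and 8 of the 19 were HD granule 3. For groups taken without regard to their values, chance gives about 1 in 20. That rate cannot be set against these counts, since some genes, MT-ND5, MT-CO2, EEF2, PKM, CTSH and BIN3 among them, were named for values in which HD granule 3 lay apart or was left out. HD granule 3 was the highest of its group for mitochondrial RNA (4.23% of reads), MT-ND5 (7619 CPM), MT-CO2 (365 CPM), MT-ATP8 (346 CPM), EEF2 (6680.3 CPM), PKM (852 CPM), CTSH (19.2 CPM) and BIN3 (13.7 CPM). Control granule 2, the library with most unnamed reads, was the lowest control for lncRNA (0.546% of reads), pseudogene transcripts (0.140%) and retained-intron transcripts (3.07%), and the highest for TNFAIP3 (20.3 CPM).

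Other libraries stood apart for single items. HD granule 2 was the highest of its group for snRNA (0.981% of reads) and CCN2 (17.1 CPM). HD granule 1 was the highest for MSH6 (331 CPM), HD granule 4 for TCF12-DT (0.570 CPM) and HD granule 5 for PTPRG-AS1 (4.36 CPM). Control granule 5 was the highest control for CHML (134 CPM) and KLHL9 (87.1 CPM).

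The HD effect differed between granules and exosomes for 3 of 16154 genes in the edgeR interaction test over all 20 libraries, which include HD exosome 4 with its 1074 reads. PDCD6P1, a pseudogene, had an interaction of -8.01 (log2, granules minus exosomes, adjusted p = 0.00913), ENSG00000275895 had -11.17 (adjusted p = 0.0429) and ENSG00000290793 had 8.29 (adjusted p = 0.0146). The log2 fold change of PDCD6P1 was 0.65 ± 0.44 in granules and 8.66 ± 0.87 in exosomes. ENSG00000275895 had 0.11 ± 0.71 in granules and 11.28 ± 1.51 in exosomes, and ENSG00000290793 had -0.03 ± 0.39 in granules and -8.31 ± 1.03 in exosomes. Without HD exosome 4, the adjusted p was 0.0155 for PDCD6P1 and for ENSG00000290793 and 0.109 for ENSG00000275895, which thus lost its call. Without HD granule 3 as well, the adjusted p values were 0.0282 for PDCD6P1, 0.0413 for ENSG00000290793 and 0.0685 for ENSG00000275895.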

How the results depend on the processing

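The count of called genes was 0 with all 10 libraries under edgeR with RLE, upper-quartile or library-size scaling, no filter, the stricter filter, no robust step, the exosome libraries added or 1 surrogate variable. DESeq2 called 4, voom 5, and leaving out 1 library 0 to 1. Without HD granule 3 the same settings gave 0, except no filter (4), DESeq2 (130) and voom (1269). Leaving out 1 further library gave 0 to 420, the highest without HD granule 1 and 1 without control granule 5. List members among the called genes were 2 of 4 under DESeq2 and 2 of 5 under voom with all libraries. Without HD granule 3 they were 67 of 130 under DESeq2, 225 of 1269 under voom, and 0 to 102 with 1 further library left out. Whether list members were called more often than other genes was not tested. Scaling by library size alone moved the median log2 fold change of all genes to -0.09 with all libraries and to -0.24 without HD granule 3. The genes at an unadjusted p under 0.05 then split into 39 higher and 366 lower, and 450 higher and 1311 lower. Upper-quartile scaling gave 85 and 122, and 879 and 451. Without HD granule 3 the ribosomal and small RNA lists kept positive medians under the alternatives run, the lowest being 0.34 for the large subunit and 0.48 for H/ACA snoRNAs. With all libraries, 1 surrogate variable gave 0.21 for the large subunit, -0.35 for H/ACA, -0.47 for box C/D, -0.22 for scaRNA, -0.26 for snRNA and -0.03 for complex I genes.

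Of 66 genes tracked, 62 kept their direction under all alternatives run. HTT was 0.019 with no filter, -0.36 under voom and between -0.13 and 0.094 with 1 library left out. Leaving out 1 library gave -0.024 to 3.24 for MT-ND5, -0.20 to 1.14 for EEF2 and -0.020 to 1.16 for PKM, each lowest without HD granule 3, and voom gave -0.21 for EEF2 and -0.019 for PKM. With all 10 libraries, the HD minus control share of snoRNA and scaRNA was 0.257 percentage points in reads and -0.141 percentage points in TPM. With 1 library left out, the HD minus control share lay between -0.480 and 6.60 points for mRNA and between -8.25 and 0.341 points for unnamed entries, both reversed without control granule 2.

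Replicate numbers did not pair most of the libraries: deviations of same-numbered libraries correlated at 0.363, -0.0563, -0.186, 0.159 and 0.707. HD granule 5 and control granule 5 correlated best with each other. Every other library correlated best with a library of another number in the other group. A replicate block gave 0 calls in both fits. The causes of these changes were not tested. IFI44 and IFIT2 rest on few reads.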
